A study of Mus musculus with 12 samples.

Results

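The Slc25 genes encode the mitochondrial carrier family. Its members in epididymal white adipose tissue (eWAT) were taken as the genes of the expression table whose mouse Ensembl identifier maps to a symbol made of Slc25a and a number, which gave 47 genes among 23474. Expression was measured by RNA-seq in 12 libraries, 3 in each of 4 groups of male C57BL/6J mice, and each library came from 1 mouse. All mice were fed their diet for 12 weeks and were 17 weeks old at the end. The ND group received a normal diet and the HFD group a high-fat diet. The GT group received the high-fat diet with 0.25% (w/w) green tea extract, and the TJ group the high-fat diet with 3% (w/w) Taeeumjowuitang (TJ), an oriental herbal medicine. GT and TJ mice thus carried the high-fat diet as well, and HFD is the control for both. Levels are FPKM, fragments mapped to a gene divided by transcript length and by the mapped fragments of the library, so that levels of different genes can be set side by side.

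Mitochondrial carriers are small proteins of the inner mitochondrial membrane that exchange metabolites between the matrix and the cytosol. The adenine nucleotide carriers export ATP and import ADP, the phosphate carrier supplies ATP synthase, and other members move citrate, dicarboxylates, amino acids, acylcarnitines, coenzymes and iron. In adipocytes the export of citrate supplies carbon for fatty acid synthesis, and the import of acylcarnitines feeds fatty acid oxidation. The 47 members were grouped by the substrate each is known or thought to carry. Of these, 8 carry ADP/ATP or ATP-Mg and phosphate, 9 amino acids, 4 citrate, dicarboxylates or oxo acids, 11 coenzymes, nucleotides or glutathione, 3 are like the uncoupling proteins, 2 carry iron, 1 phosphate and 1 carnitine, and 8 have other or less settled substrates.

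The promoters of the adenine nucleotide carriers Slc25a4, Slc25a5 and Slc25a31 and of the aspartate/glutamate carrier Slc25a13 are shown because the levels of these genes are described below. Each is the 250 bases before the RefSeq transcription start (GRCm38.p6), written 5′ to 3′ on the strand of the gene. Slc25a4 lies at chr8:46211063-46211312 on the minus strand, Slc25a5 at chrX:36795347-36795596 on the plus strand, Slc25a31 at chr3:40708621-40708870 on the plus strand and Slc25a13 at chr6:6217174-6217423 on the minus strand. Capitals mark matches to the E-box CACGTG and to the NRF-1 motif (GCGC, any base, then TGCGC), where NRF-1 is a regulator of nuclear genes for mitochondrial proteins. The promoters of Slc25a4 and Slc25a5 hold neither, that of Slc25a31 holds 1 of each and that of Slc25a13 holds 1 E-box.
Slc25a4: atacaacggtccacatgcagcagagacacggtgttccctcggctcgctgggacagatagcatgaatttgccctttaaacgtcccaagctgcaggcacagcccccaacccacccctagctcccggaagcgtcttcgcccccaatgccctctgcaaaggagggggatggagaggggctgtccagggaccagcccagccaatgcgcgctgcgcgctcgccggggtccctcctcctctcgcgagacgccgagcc
Slc25a5: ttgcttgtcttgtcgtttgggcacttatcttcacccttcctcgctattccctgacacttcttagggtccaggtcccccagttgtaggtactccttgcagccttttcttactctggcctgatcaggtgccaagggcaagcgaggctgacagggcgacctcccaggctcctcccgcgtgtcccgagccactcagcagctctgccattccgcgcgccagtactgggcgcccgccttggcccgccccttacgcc
Slc25a31: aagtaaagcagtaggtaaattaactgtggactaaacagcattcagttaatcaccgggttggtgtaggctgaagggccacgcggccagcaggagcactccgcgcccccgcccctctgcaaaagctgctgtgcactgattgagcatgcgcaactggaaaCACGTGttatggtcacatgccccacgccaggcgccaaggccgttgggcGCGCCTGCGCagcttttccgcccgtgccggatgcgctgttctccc
Slc25a13: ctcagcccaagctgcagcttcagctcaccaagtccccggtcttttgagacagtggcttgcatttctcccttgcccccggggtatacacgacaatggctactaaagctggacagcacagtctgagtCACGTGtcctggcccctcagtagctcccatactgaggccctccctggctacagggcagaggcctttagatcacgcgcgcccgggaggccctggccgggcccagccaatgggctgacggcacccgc

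Windows of 300 bases, which add the 50 bases after the start, were given for 36 of the 47 members. Motif letters were searched on both strands. The E-box stood in 6 of the 36 member windows (16.7%) and in 7.15% of 32851 promoters of the same length. The 6 were those of Slc25a1, Slc25a13, Slc25a14, Slc25a31, Slc25a33 and Slc25a36. The NRF-1 motif stood in the windows of Slc25a3 and Slc25a31 and in 4.6% of all promoters. The cAMP response element TGACGTCA stood in that of Slc25a36 (1.79% of all promoters) and the sterol element TCACNCCAC in that of Slc25a18 (1.24%). The estrogen-related receptor element TNAAGGTCA, found in 1.28% of all promoters, was in no member window. The member windows held a median of 17 CpG dinucleotides, against 7 in all promoters. These matches are descriptions of letters and were not tested against expression.

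One library stood apart from the rest and another in part. In ND replicate 1 the summed level of 10 male germ cell markers was 99280 FPKM, against 169 and 3055 FPKM in the other ND libraries, 2088 FPKM in HFD replicate 1 and at most 78.3 FPKM in the remaining 8. Its 10 epididymis markers summed to 15223 FPKM, while its 8 adipocyte markers summed to 4454 FPKM against 17354 to 61616 FPKM in the other 11 libraries. HFD replicate 2, a control for both treated groups, held epididymis markers at 1291 FPKM, with 5 of the 10 above 0, where the remaining 10 libraries stood at 43.3 FPKM or less. Without it no member was called in any comparison with HFD, and over all genes 0, 0 and 5 were called in TJ against HFD, HFD against ND and GT against HFD. In ND replicate 1 21 of the 47 members stood below 0.5 times the mean of ND replicates 2 and 3, and 10 stood above 2 times that mean. Values for ND are therefore given with and without it. The 8 macrophage markers summed to 58.2 to 559 FPKM in ND, 2893 to 4066 FPKM in HFD, 1200 to 2649 FPKM in GT and 716 to 2121 FPKM in TJ. The adipocyte sums were 17354 to 19850 FPKM in HFD, 24405 to 28121 FPKM in GT and 29974 to 61616 FPKM in TJ. In bulk tissue, fewer cells of a type and less RNA per cell cannot be told apart, and the part of these cell types in the results below was not tested. The depth estimated from the FPKM steps was 9.89M to 15.7M fragments in ND, 13.6M to 18.8M in HFD, 15.3M to 18.8M in GT and 16.03M to 17.2M in TJ.

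The family was dominated by a few carriers. Slc25a3, the phosphate carrier, had the highest mean level over the 12 libraries (238 FPKM), followed by Slc25a39, a mitochondrial glutathione carrier (177 FPKM), Slc25a5 (172 FPKM), the citrate carrier Slc25a1 (169 FPKM), Slc25a4 (117 FPKM) and the dicarboxylate carrier Slc25a10 (109 FPKM). The oxoglutarate/malate carrier Slc25a11 (49.9 FPKM) and the carnitine/acylcarnitine carrier Slc25a20 (38.4 FPKM) completed the first 8. Between 36 and 45 of the 47 members reached 1 FPKM in a library. The rank of Slc25a39 rested on ND replicate 1, where it was listed at 844 FPKM. It stood at 93.3 and 128 FPKM in the other ND libraries, 127, 78.1 and 94.9 FPKM in HFD, 128, 119 and 117 FPKM in GT and 131, 152 and 109 FPKM in TJ. Slc25a3 was the steadiest of the abundant members outside that library. It stood at 269 and 224 FPKM in ND replicates 2 and 3, 238 to 251 FPKM in HFD, 213 to 268 FPKM in GT and 264 to 288 FPKM in TJ, against 84.7 FPKM in ND replicate 1. The summed level of all 47 members was 1370 to 1493 FPKM in ND, 1466 to 1545 FPKM in HFD, 1497 to 1672 FPKM in GT and 1436 to 1485 FPKM in TJ. In these sums the groups overlapped, except that all GT libraries lay above all ND and TJ libraries. The FPKM of all genes summed to between 527904 (HFD replicate 3) and 1002770 (ND replicate 1). Of that sum the family took 0.149% to 0.256% in ND and 0.275% to 0.291% in HFD. It took 0.275% to 0.301% in GT and 0.198% to 0.256% in TJ. By this share all ND and TJ libraries lay below all HFD and GT libraries, which was not tested.

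**Figure D1:**
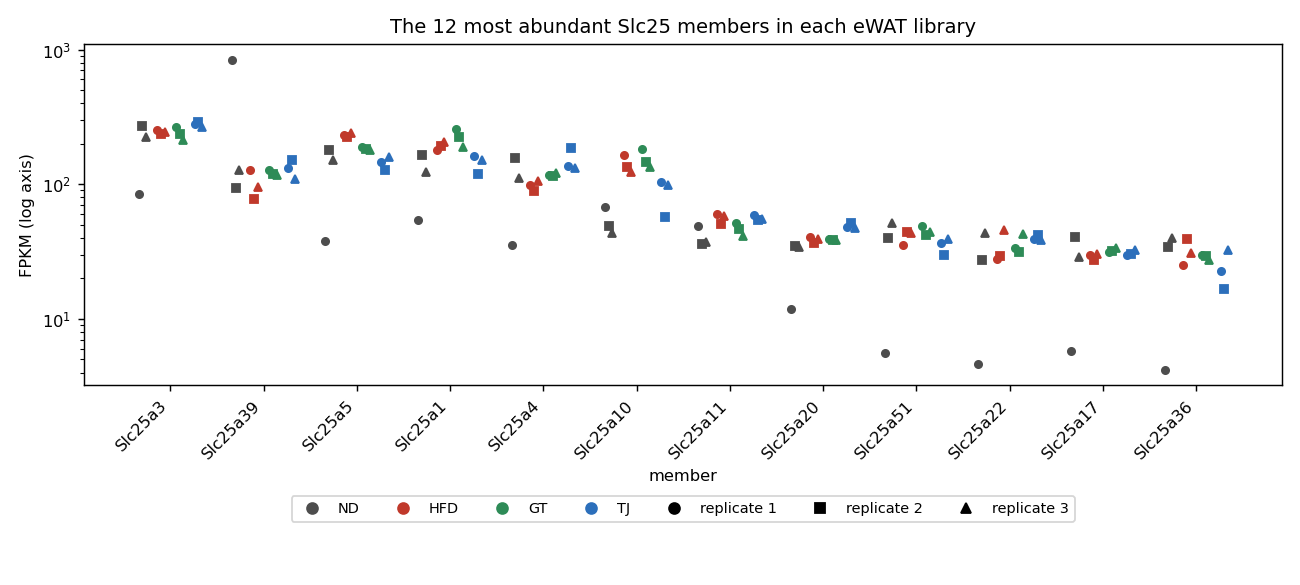
FPKM on a log axis of the 12 members with the highest mean over the 12 libraries, by group (colour) and replicate (symbol). ND replicate 1 lies apart from the other libraries for many members, for example above them for Slc25a39 (844 FPKM) and below them for Slc25a3 (84.7 FPKM).

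The comparison of TJ with HFD asks how the herbal medicine altered expression in mice on the high-fat diet. Genes that averaged 1 FPKM or more in the 6 libraries were tested with limma on log2(FPKM + 1), and a gene was called where the Benjamini-Hochberg adjusted p over all tested genes was under 0.05 and the fold at least 1.5. Of the 47 members 39 were tested and 6 were called, 4 higher and 2 lower, where 18.5% of the 12807 genes tested were called, 7.41% higher and 11.1% lower. Slc25a4, Slc25a23 and Slc25a42 were among those higher in TJ, and Slc25a5 and Slc25a13 were lower. The share of members called was thus close to that of all genes. The median log2 fold change of the tested members was 0.08, with a range from −2.11 to 0.97, beside −0.14 for all genes. Median-of-ratios scaling moved these medians to 0.21 and −0.01 and the calls to 6 higher and 1 lower, against 10.1% of all genes higher and 8.49% lower. Quantile normalization gave 8 members higher and 4 lower (12.0% and 8.99% of all genes), the length trend removed 4 and 4 (4.99% and 7.82%), and array weights 2 and 5 (9.82% and 16.0%), so the balance of directions among called members depended on the fit. In 13 members all TJ libraries lay above all HFD libraries and in 11 all lay below, where 51.5% of all tested genes did not overlap. The count of 6 fell to 0 without HFD replicate 1, 2 or 3 or TJ replicate 1, and in these 4 fits no gene of the 12411 to 12889 tested was called either. It was 4 without TJ replicate 2 and 7 without TJ replicate 3, where 15.7% and 26.5% of all genes were called.

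**Figure D2:**
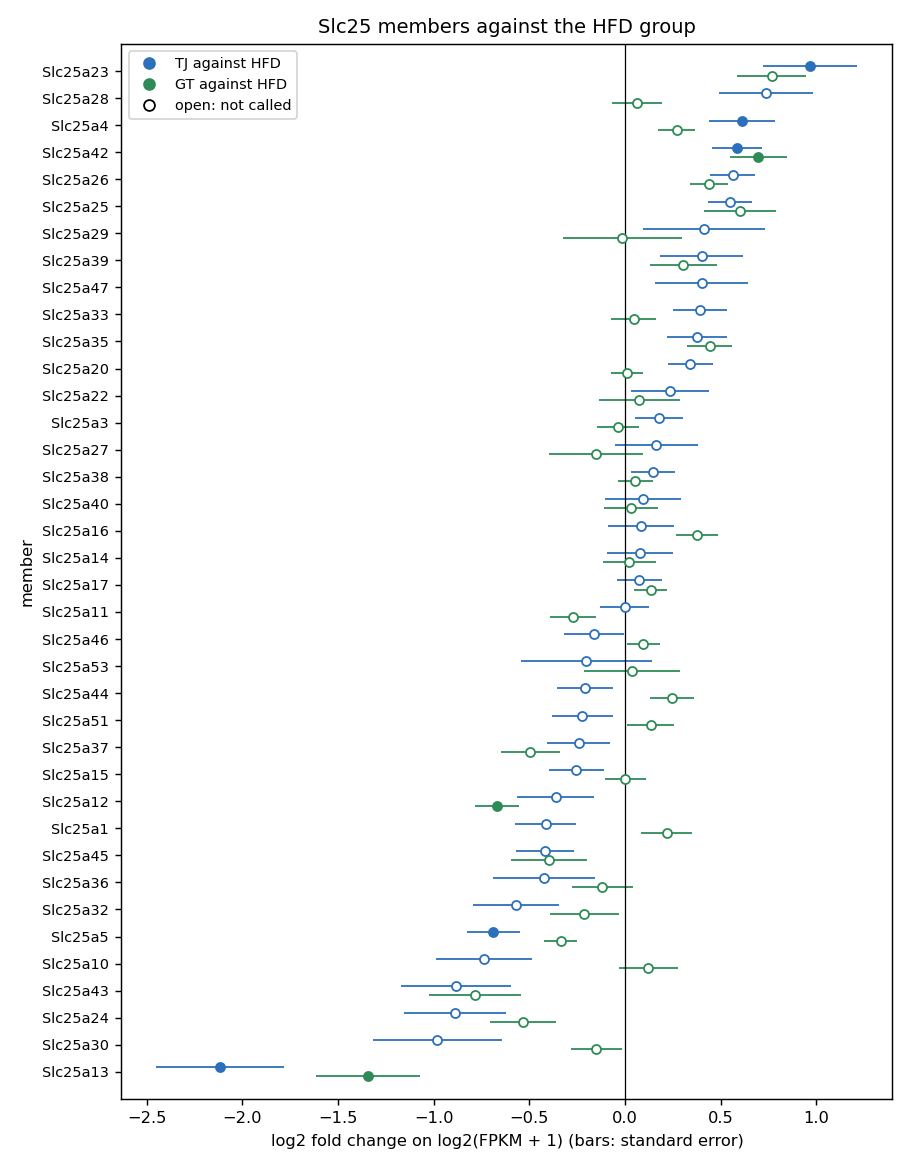
Log2 fold change on the log2(FPKM + 1) scale of tested members in TJ (blue) and GT (green) against the same 3 HFD libraries, with bars for the standard error and filled points for called members. Slc25a13 was lowest in both comparisons (−2.11 and −1.34), and Slc25a23 was highest of those plotted (0.97 and 0.77).

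The 2 main adenine nucleotide carriers moved in opposite directions. Slc25a4, the isoform that predominates in heart and skeletal muscle, was measured at 98.4, 89.6 and 106 FPKM in HFD and at 137, 185 and 132 FPKM in TJ. Every TJ library exceeded every HFD library, and the difference of 0.61 ± 0.17 (log2, SE, n = 3 per group, limma adjusted p = 0.0466) was called. Slc25a5, the isoform found in most other tissues, was measured at 233, 226 and 242 FPKM in HFD and at 148, 128 and 160 FPKM in TJ. Here every TJ library was below every HFD library, with a difference of −0.69 ± 0.14 (adjusted p = 0.0276). The GT libraries lay between the groups for both genes, at 117, 115 and 122 FPKM for Slc25a4 and 190, 184 and 180 FPKM for Slc25a5. Against HFD the GT differences were 0.27 ± 0.10 (adjusted p = 0.125) and −0.34 ± 0.08 (adjusted p = 0.0667), so neither was called. In ND the values were 35.5, 157 and 110 FPKM for Slc25a4 and 37.8, 179 and 153 FPKM for Slc25a5, with ND replicate 1 lowest for both.

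The ratio of Slc25a4 to Slc25a5 within a library does not depend on the scaling of that library. It was 0.94, 0.88 and 0.72 in ND, 0.42, 0.40 and 0.44 in HFD, 0.61, 0.62 and 0.68 in GT and 0.93, 1.45 and 0.83 in TJ. The HFD libraries were lowest, the GT libraries lay above them, and the ND and TJ libraries lay above both and overlapped with each other. On the log2 scale the ratio differed by 1.31 between TJ and HFD, by −1.01 between HFD and ND, by 0.61 between GT and HFD and by 0.70 between TJ and GT. Each of these had an exact two-sided permutation p of 0.1, the smallest that 3 libraries against 3 can give. The ratio in ND replicate 1 was the highest of the 3 in ND, although both of its levels were low. The sum of both carriers was 315 to 348 FPKM in HFD, 299 to 307 FPKM in GT and 285 to 313 FPKM in TJ. Skeletal muscle markers summed to at most 3.52 FPKM in any library, over the 5 of 6 listed markers that were in the table. The call of Slc25a4 was lost in 12 of 16 alternative settings, with quantile normalization (0.50), array weights (0.48), the length trend removed (0.43), the replicate block (adjusted p = 0.0995) and without TJ replicate 2 (0.46) among them. That of Slc25a5 was lost in 8 of 16, with median-of-ratios scaling (−0.55) and the replicate block (adjusted p = 0.0556) among them. Reads of Slc25a5 may be shared with its pseudogene Slc25a5-ps, and how they were split is not known.

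**Figure D3:**
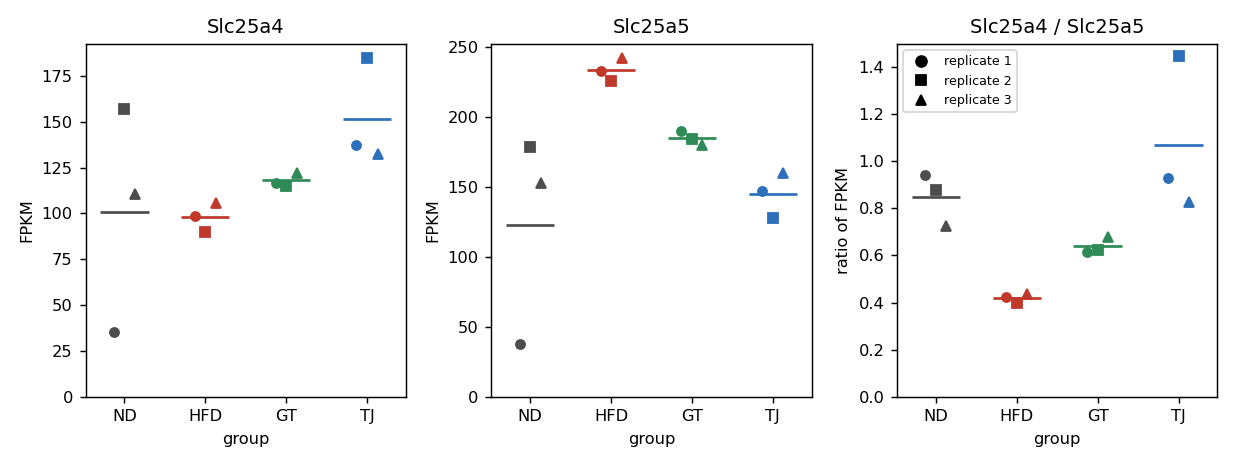
FPKM of Slc25a4 and Slc25a5 and their ratio in each library, with lines at the group means and all axes from 0. Slc25a4 rises from HFD (89.6 to 106 FPKM) to TJ (132 to 185 FPKM) while Slc25a5 falls (226 to 242 against 128 to 160 FPKM), and the ratio is lowest in the HFD libraries (0.40 to 0.44).

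The calcium-regulated carriers that exchange ATP-Mg for phosphate also differed among themselves. Slc25a23 was measured at 8.24, 10.1 and 9.31 FPKM in HFD, 12.4, 16.9 and 20.6 FPKM in GT and 13.7, 27.8 and 17.7 FPKM in TJ. All GT and TJ libraries were above all HFD libraries. The difference of 0.97 ± 0.25 in TJ was called (adjusted p = 0.0401, lost in 6 of 16 alternative settings) and that of 0.77 ± 0.18 in GT was not (adjusted p = 0.0592). Slc25a24 had the opposite pattern, at 22.5, 24.7 and 26.5 FPKM in HFD, 20.2, 18.0 and 12.7 FPKM in GT and 16.2, 7.90 and 16.2 FPKM in TJ. Its difference between TJ and HFD was −0.89 ± 0.27 (adjusted p = 0.0544), which did not pass the test. Slc25a25 was measured at 19.4, 19.4 and 18.6 FPKM in HFD, 22.5, 29.6 and 38.9 FPKM in GT and 28.2, 27.1 and 30.3 FPKM in TJ, and its difference of 0.55 ± 0.11 in TJ passed the adjusted p (0.0285) but not the fold. Slc25a23 overlaps Crb3, and Slc25a25 overlaps Naif1, on the opposite strand, and the strand setting of the counting is not given in the sources used here.

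The aspartate/glutamate carriers of the malate-aspartate shuttle gave the largest difference in the family. Slc25a13 was measured at 8.69, 8.39 and 11.1 FPKM in HFD, 4.37, 3.78 and 1.64 FPKM in GT, 2.11, 0.39 and 2.14 FPKM in TJ and 1.39, 0.42 and 1.84 FPKM in ND. The 3 HFD libraries were well above all 9 others. It was lower than HFD in TJ (−2.11 ± 0.33, adjusted p = 0.0230) and in GT (−1.34 ± 0.27, adjusted p = 0.0482). These comparisons share the HFD libraries, and the calls were lost in 6 and 9 of 16 alternative settings. The macrophage marker sum was likewise highest in the 3 HFD libraries (2893 to 4066 FPKM), and its part in the level of Slc25a13 was not tested. Its isoform Slc25a12 was measured at 12.6, 10.9 and 12.7 FPKM in HFD, 8.17, 7.07 and 6.45 FPKM in GT and 8.74, 7.01 and 12.4 FPKM in TJ. It was lower in GT (−0.67 ± 0.12, adjusted p = 0.0379), a call lost in 11 of 16 alternative settings, and TJ replicate 3 overlapped with HFD (−0.36 ± 0.20, adjusted p = 0.207).

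No other amino acid carrier was called in TJ or GT against HFD. The glutamate carrier Slc25a22 ranged from 28.0 to 46.1 FPKM over the 9 libraries on the high-fat diet, and the glycine carrier Slc25a38 from 10.3 to 12.6 FPKM. The ornithine carrier Slc25a15 ranged from 3.90 to 6.09 FPKM in the same libraries. Slc25a44, a carrier of branched-chain amino acids, was measured at 17.0, 17.8 and 17.9 FPKM in HFD, 19.2, 19.7 and 24.6 FPKM in GT and 16.4, 12.4 and 16.8 FPKM in TJ. Its GT libraries lay above and its TJ libraries below the HFD libraries, and neither difference passed the test.

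**Figure D4:**
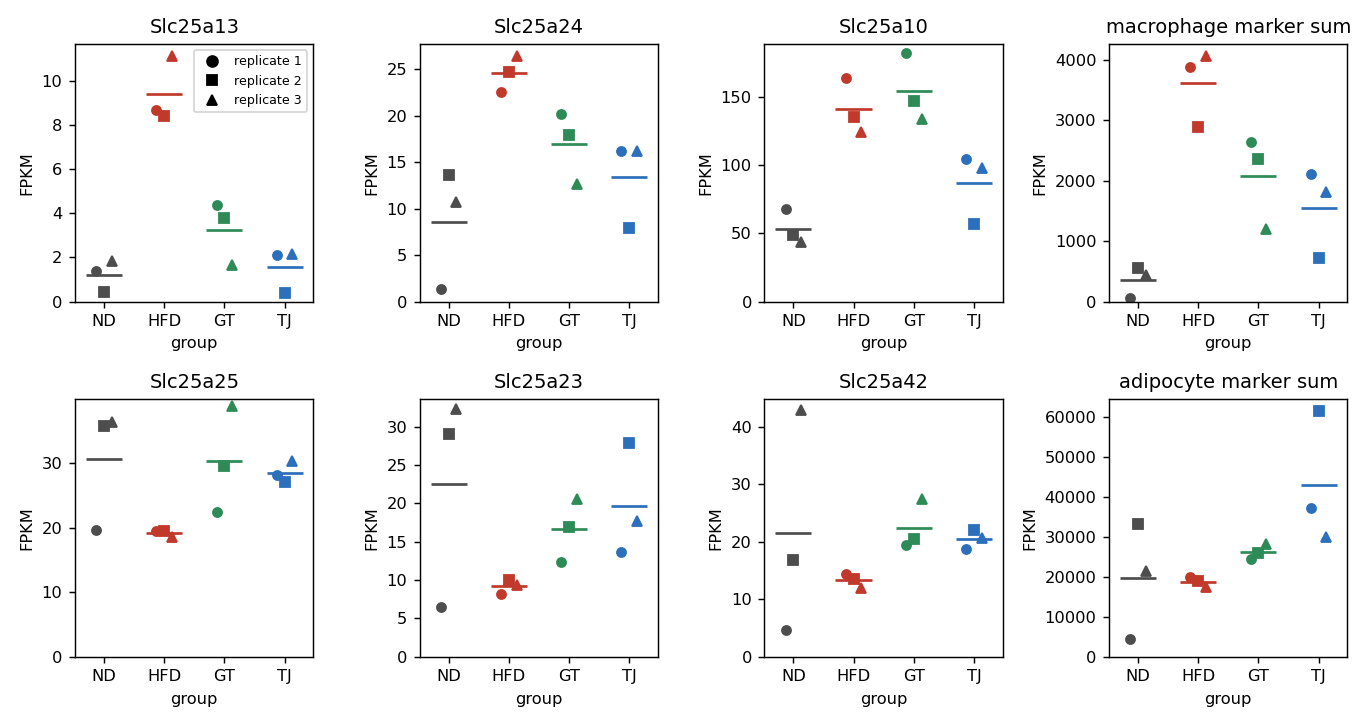
FPKM by group and replicate of 6 members and, in the right-hand panels, of the summed macrophage and adipocyte markers, with lines at the group means and axes from 0. Slc25a13 (8.39 to 11.1 FPKM) and the macrophage sum (2893 to 4066 FPKM) are highest in the HFD libraries, while Slc25a42 stands at 12.0 to 14.4 FPKM in HFD and 18.8 to 27.5 FPKM in GT and TJ.

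Slc25a42, a carrier of coenzyme A, was called higher in TJ and in GT, which were compared with the same HFD libraries. It was measured at 14.4, 13.6 and 12.0 FPKM in HFD, 19.4, 20.5 and 27.5 FPKM in GT and 18.8, 22.1 and 20.7 FPKM in TJ. The HFD libraries did not overlap with either treated group, while the ND libraries spread from 4.69 to 16.8 and 42.9 FPKM. Its differences of 0.59 ± 0.13 in TJ (adjusted p = 0.0313) and 0.70 ± 0.15 in GT (adjusted p = 0.0499) were just past the thresholds, and each call was lost in 10 of 16 alternative settings. The call in TJ was lost without any 1 of the 6 libraries, and that in GT without any 1 but GT replicate 1. The adipocyte marker sum was also higher in all GT and TJ libraries than in all HFD libraries, with 6 of its 8 genes called higher in TJ and 3 in GT, and its part in this level was not tested.

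Other coenzyme carriers differed by less. Slc25a26, which imports S-adenosylmethionine, was measured at 8.33, 8.25 and 7.64 FPKM in HFD, 10.2, 11.8 and 12.0 FPKM in GT and 11.6, 12.8 and 12.7 FPKM in TJ. In TJ it passed the adjusted p (0.0281) with a difference of 0.56 ± 0.12, under the fold threshold. It overlaps Lrig1 on the opposite strand. Slc25a16 was higher in all GT than in all HFD libraries (24.5 to 25.9 against 17.2 to 22.0 FPKM), with a difference of 0.38 ± 0.11 that was not called (adjusted p = 0.0854). The pyrimidine nucleotide carriers Slc25a33 and Slc25a36, the folate carrier Slc25a32, the NAD carrier Slc25a51 and the peroxisomal carrier Slc25a17 were not called in TJ or GT against HFD. Over the 11 members of this group, 8 had a log2 fold change above 0 in TJ (median 0.10) and 9 in GT (median 0.14).

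Carriers of citrate and dicarboxylates made up a varying share of the family. They took 25.7% ± 0.443 (SD, n = 3) of the summed Slc25 FPKM in HFD, 27.0% ± 2.57 in GT, 19.6% ± 3.08 in TJ and 14.8% ± 3.01 in ND, where replicates 2 and 3 stood at 17.6% and 15.2%. All ND and TJ libraries were below all HFD and GT libraries. Slc25a1 was measured at 179, 191 and 204 FPKM in HFD, 259, 224 and 190 FPKM in GT and 162, 120 and 152 FPKM in TJ, beside 54.6, 166 and 124 FPKM in ND. Its difference of −0.41 ± 0.16 between TJ and HFD was not called (adjusted p = 0.0965). Slc25a10 was measured at 164, 135 and 124 FPKM in HFD, 182, 147 and 133 FPKM in GT and 104, 57.1 and 98.0 FPKM in TJ. The TJ libraries lay below the HFD libraries, but the difference of −0.74 ± 0.25 was not called (adjusted p = 0.0737). Slc25a11 was measured at 60.1, 50.3 and 58.6 FPKM in HFD, 51.8, 46.2 and 41.5 FPKM in GT and 59.0, 54.0 and 55.4 FPKM in TJ, and HFD overlapped with both. It overlaps Rnf167 on the opposite strand.

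The remaining groups held no called member in TJ or GT against HFD. Slc25a20, which exchanges acylcarnitines for carnitine, was measured at 40.3, 36.7 and 39.0 FPKM in HFD, 39.4, 38.4 and 38.9 FPKM in GT and 48.3, 51.8 and 47.5 FPKM in TJ, beside 11.8, 35.1 and 33.9 FPKM in ND. All TJ libraries were above the other 9, but the difference from HFD was 0.34 ± 0.12 (adjusted p = 0.0745). The phosphate carrier Slc25a3 differed by 0.18 ± 0.12 (adjusted p = 0.297) between TJ and HFD. The mitochondrial iron importers Slc25a28 (mitoferrin 2) and Slc25a37 (mitoferrin 1) differed by 0.74 ± 0.24 (adjusted p = 0.0681) and −0.24 ± 0.16 (adjusted p = 0.292). For Slc25a28 the values were 17.2, 12.7 and 13.5 FPKM in HFD, 16.1, 14.0 and 15.1 FPKM in GT and 20.1, 35.7 and 20.5 FPKM in TJ, with TJ replicate 2 highest of these 9. Slc25a30, which resembles the uncoupling proteins, was measured at 10.6, 13.5 and 14.9 FPKM in HFD, 10.7, 12.0 and 11.8 FPKM in GT and 6.82, 3.14 and 9.73 FPKM in TJ. TJ lay below HFD (−0.98 ± 0.34, adjusted p = 0.0761) without passing the test. Slc25a43 was measured at 1.83, 2.16 and 2.81 FPKM in HFD, 0.945, 1.32 and 0.484 FPKM in GT, 1.04, 0.246 and 1.14 FPKM in TJ and 0.425, 0.185 and 0.343 FPKM in ND. It was highest in the HFD libraries, with differences of −0.88 ± 0.29 in TJ (adjusted p = 0.0644) and −0.78 ± 0.24 in GT (adjusted p = 0.0956).

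The comparison of GT with HFD asks the same of green tea extract. Of 38 members tested, 4 were called, 2 higher, among them Slc25a42, and 2 lower, Slc25a12 and Slc25a13, where 3.63% of 12766 genes were called, 1.83% higher and 1.81% lower. The median log2 fold change of the members was 0.04, beside −0.12 for all genes. Median-of-ratios scaling gave 2 members higher and 1 lower (3.14% and 1.14% of all genes), and quantile normalization 4 higher and 1 lower (3.17% and 1.27%). The length trend removed gave 1 higher and 2 lower (1.85% and 1.68%), and array weights 4 and 3 (3.73% and 7.36%). In 10 members all GT libraries lay above all HFD libraries and in 6 all lay below, beside 36.7% of all tested genes that did not overlap. The count was 0 without HFD replicate 2 or 3 or GT replicate 2 or 3, 1 without HFD replicate 1, and 7 without GT replicate 1. Over all genes 4 to 7 were called in the first 4 of these fits, 0.533% without HFD replicate 1 and 8.63% without GT replicate 1.

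TJ and GT were also set directly against each other. No member of 38 tested was called by limma, where 0.148% of 12187 genes were called, and 9 members had an unadjusted p under 0.05, as did 24.6% of all genes. The lowest were Slc25a10 (−0.86 ± 0.25), Slc25a30 (−0.83 ± 0.32) and Slc25a13 (−0.77 ± 0.39), and Slc25a1 differed by −0.63 ± 0.19. The highest were Slc25a28 (0.67 ± 0.23), Slc25a29, a carrier of basic amino acids (0.42 ± 0.17), and Slc25a47 (0.41 ± 0.18). Their adjusted p ranged from 0.130 to 0.246. Slc25a29 was measured at 1.47, 1.52 and 1.94 FPKM in GT and 2.22, 3.15 and 2.31 FPKM in TJ. Slc25a47 was measured at 0.807, 0.940 and 1.01 FPKM in GT and 1.37, 2.14 and 1.22 FPKM in TJ. The groups did not overlap for these genes, apart from Slc25a13. All but Slc25a1 were picked for the size of their fold change. Of the 38 members tested, 8 lay higher and 9 lower in TJ without overlap, where 34.4% of all tested genes did not overlap.

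The comparison of HFD with ND asks what the high-fat diet altered, and it depended on ND replicate 1. With all 6 libraries 43 members were tested and none was called by limma, where 1.77% of 14430 genes were called, and 6 members had an unadjusted p under 0.05, as did 11.6% of all genes. Slc25a13 had the largest difference (2.28 ± 0.38, adjusted p = 0.0509). Without ND replicate 1, 41 members were tested and 7 were called, where 15.4% of 13661 genes were called, 11.0% higher and 4.34% lower. Slc25a10 (1.58 ± 0.16, adjusted p = 0.00398), Slc25a11 (0.60 ± 0.13, adjusted p = 0.0345), Slc25a13 (2.36 ± 0.34, adjusted p = 0.0118), Slc25a24 (0.96 ± 0.16, adjusted p = 0.0160) and Slc25a45 (1.12 ± 0.22, adjusted p = 0.0302) were higher in HFD. Slc25a23 (−1.64 ± 0.14, adjusted p = 0.00259) and Slc25a25 (−0.88 ± 0.11, adjusted p = 0.00726) were lower. The call of Slc25a11 was lost when HFD replicate 1, whose germ cell markers stood at 2088 FPKM, was also left out (adjusted p = 0.115) and under median-of-ratios scaling (0.112). That of Slc25a45 was lost in the first of these (0.0943) and that of Slc25a24 in the second (0.0672). With the replicate number as a block, which leaves 2 pairs of libraries without ND replicate 1, the 7 called members became 2 (3.67% of all genes). These were Slc25a10 (1.46, adjusted p = 0.0368) and Slc25a23 (−1.57, adjusted p = 0.0475), and the other 5 had an adjusted p of 0.0556 to 0.212. The block with all 6 libraries gave no call among members or among all 14430 genes, where 2239 genes had an unadjusted p under 0.05. The median log2 fold change of the members was 0.43 with the library (0.07 for all genes) and −0.14 without it (−0.02 for all genes).

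The dicarboxylate carrier Slc25a10 was measured at 67.7, 49.0 and 43.7 FPKM in ND, below all 3 HFD libraries (124 to 164 FPKM) with or without replicate 1. Slc25a11 was measured at 48.9, 36.0 and 37.4 FPKM in ND against 50.3 to 60.1 FPKM in HFD. Slc25a45, whose substrate is less settled, was measured at 4.40, 5.17 and 8.02 FPKM in ND, 17.7, 13.2 and 15.0 FPKM in HFD, 14.7, 11.5 and 8.51 FPKM in GT and 10.9, 10.2 and 12.5 FPKM in TJ. All 3 of these genes, picked here as called members, were higher in every HFD library than in every ND library. Of the 43 members tested, 11 lay higher and 5 lower in HFD without overlap. Over all tested genes 26.4% did not overlap, and 47.2% did not without ND replicate 1. Slc25a24 stood at 1.39, 13.6 and 10.7 FPKM in ND and Slc25a25 at 19.6, 35.8 and 36.4 FPKM. For Slc25a23 the ND values were 6.45, 29.0 and 32.3 FPKM, so that replicate 1 lay below the HFD libraries (8.24 to 10.1 FPKM) and the other ND libraries far above them. Slc25a12 was 1.63, 4.17 and 8.89 FPKM in ND and below HFD in each library, with a difference of 0.87 ± 0.30 without replicate 1 (adjusted p = 0.119). The ratio of Slc25a4 to Slc25a5 in ND was given above. Without replicate 1 Slc25a4 differed by −0.43 ± 0.18 (adjusted p = 0.190) and Slc25a5 by 0.50 ± 0.12, which passed the adjusted p (0.0488) but not the fold. The macrophage marker sum was higher in every HFD library than in every ND library, and its part was not tested.

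Several members were under 1 FPKM outside ND replicates 1 and 3 and HFD replicate 1. Male germ cell markers were above 0 in every library. All 10 also reached 1 FPKM in ND replicate 2, where they summed to 169 FPKM. Slc25a31, the adenine nucleotide carrier of the testis, was listed at 9.32 FPKM in ND replicate 1, 4.45 FPKM in ND replicate 3 and 2.02 FPKM in HFD replicate 1, and at no more than 0.383 FPKM in the other 9 libraries. The ornithine carrier Slc25a2 was listed at 16.1, 3.08 and 2.08 FPKM in these 3 libraries and at no more than 0.622 FPKM elsewhere. Slc25a54 was listed at 6.05, 1.45 and 1.42 FPKM and at no more than 0.173 FPKM elsewhere. The ATP-Mg carrier Slc25a41 was listed at 24.9 and 2.45 FPKM in ND replicates 1 and 3, at 0.0542 FPKM in HFD replicate 1, and at 0 in all GT and TJ libraries. Slc25a21, a carrier of oxodicarboxylates, was listed at 2.67 and 2.1 FPKM in ND replicates 1 and 3 and at no more than 0.280 FPKM elsewhere. ND replicates 1 and 3, where these 5 genes were highest, had the largest germ cell marker sums (99280 and 3055 FPKM). HFD replicate 1 came next (2088 FPKM), but Slc25a41 was higher in ND replicate 2 (0.168 FPKM) and HFD replicate 3 (0.116 FPKM). The genes were picked as under 1 FPKM outside these 3 libraries, so the match is in part a matter of selection. ND replicate 1 also held epididymis markers at 15223 FPKM, and the part of either tissue was not tested. The members under the filter in TJ against HFD were these 5 and Slc25a18, Slc25a34 and Slc25a48. The last 3 met the same rule, and each was higher in at least 1 of the other 9 libraries than in HFD replicate 1.

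**Figure D5:**
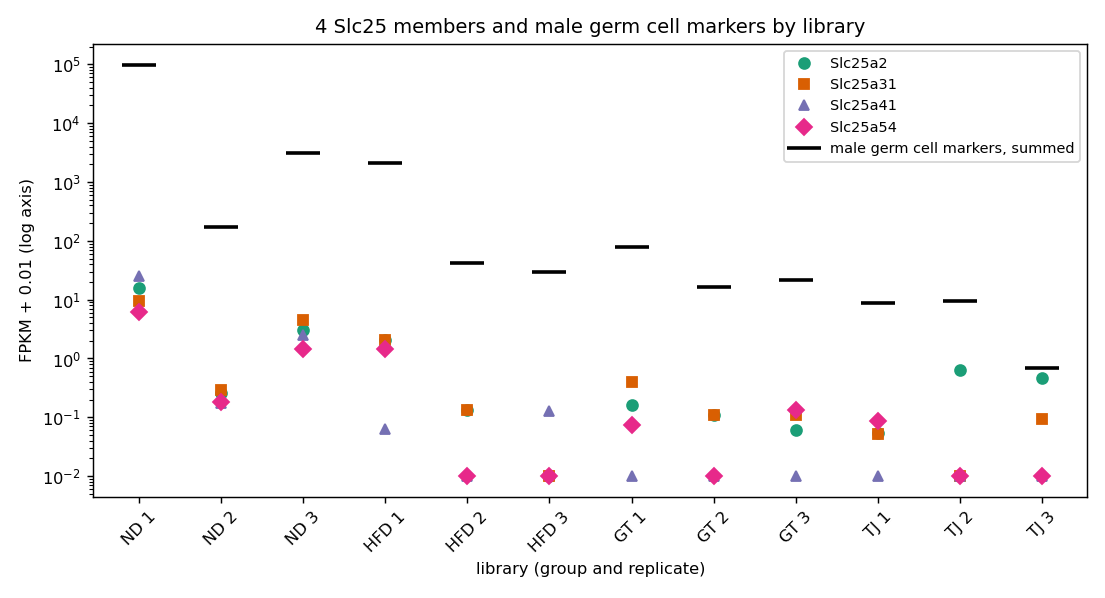
FPKM + 0.01 on a log axis of 4 members (symbols) and of the summed male germ cell markers (bars) in each library. The members reach 1 FPKM in ND replicates 1 and 3 and in HFD replicate 1 only, apart from Slc25a41, which is near 0 in the last, and these libraries have the largest marker sums (99280, 3055 and 2088 FPKM).

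Genes that work beside the carriers were taken from a list of 38 relatives, other mitochondrial transporters and enzymes that use the carried substrates, of which 37 were in the table (Abcb10 was not analysed here). In TJ against HFD 36 were tested, 6 were called higher and 8 lower, beside 7.41% and 11.1% of all genes. Higher were both subunits of the mitochondrial pyruvate carrier, Mpc1 (0.60 ± 0.14, adjusted p = 0.0343) and Mpc2 (0.78 ± 0.13, adjusted p = 0.0247), as well as the sideroflexins Sfxn1 and Sfxn4, the uncoupling protein Ucp3 (1.26 ± 0.17, adjusted p = 0.0196) and Tspo. Lower were ATP citrate lyase Acly, which cleaves the citrate that Slc25a1 exports (−1.25 ± 0.31, adjusted p = 0.0381), and among others Acss2, Cpt1b, Got2, Vdac2, Sfxn3 and Ucp2 (−1.19 ± 0.23, adjusted p = 0.0268). Acly was measured at 80.9, 104 and 91.1 FPKM in HFD and 40.9, 23.3 and 57.2 FPKM in TJ, so all TJ libraries were lower. In GT against HFD Ucp3 (1.07 ± 0.20, adjusted p = 0.0433) and Tspo (0.71 ± 0.12, adjusted p = 0.0379) were called higher and none lower of 36 tested (3.63% of all genes were called), and in TJ against GT none was called (0.148%). In HFD against ND only Ucp2 was called (2.88 ± 0.46, adjusted p = 0.0470; 1.77% of all genes, and none with the replicate block), and without ND replicate 1 there were 6 higher and 4 lower of 37 (11.0% and 4.34%). Ucp2 was measured at 47.5, 109 and 128 FPKM in ND, 536 to 717 FPKM in HFD, 321 to 676 FPKM in GT and 211 to 354 FPKM in TJ, and the macrophage marker sum followed the same order of groups. Its part in the level of Ucp2 was not tested.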

How the data were processed

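The eWAT of 3 mice per group was profiled by paired-end RNA-seq (TruSeq RNA kit). The authors deposited 1 table of FPKM values, computed with Cufflinks 2.1.1 after mapping with STAR to Ensembl release 72, with correction for multireads and fragment bias. In the methods the genome is given as human and the mapper as STAR v2.3.0e, the submitters' processing notes give STAR 2.4.0 and CASAVA 1.8.2, and all 23474 identifiers are from mouse. FPKM hold no counts, so depth is approximate, was estimated from FPKM steps over 2315 genes whose only transcript is 1500 nt or longer, and no counting intervals are given.

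Symbols and coordinates (GRCm38) came from GENCODE M21, which named 22671 identifiers and left 803 unnamed. Promoters came from RefSeq. The 6 libraries of each comparison were fitted with limma 3.58.1 in R 4.3.3 (lmFit, eBayes with trend) on log2(FPKM + 1) without covariates, for genes averaging 1 FPKM or more. Fold changes on this scale understate changes of low genes. Medians of member fold changes are descriptions. Ratios were compared with exact permutation tests (scipy 1.17.1), and tables were handled with pandas 2.3.3, numpy 2.4.6, matplotlib 3.10.9 and python 3.11.15. The fits were tested on simulated data.

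The members, role groups and lists were chosen with earlier results of these data known. Values by library or their range, in the groups compared, are given for called members, the 8 with the highest mean, the 3 highest and 3 lowest fold changes per comparison, and a fixed set of carriers, except that some genes, counted in the totals, are not reported here. Replicate numbers were shared between groups. Deviations of same-numbered libraries correlated at 0.55, 0.34 and 0.12 in HFD against ND. HFD replicate 3 correlated more with ND replicate 2 (0.63), so whether the numbers pair the libraries is not known. The fits above carry no block, and values with the number as a block are given beside HFD against ND and in the closing section. Alternatives covered the pseudocount, filter, scaling, block, variance trend, array weights, transcript length and each library left out. Fits without ND replicate 1 and HFD replicate 1, and without ND replicate 1 after median-of-ratios scaling or with the block, were added after seeing the data.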

Additional observations from a re-analysis of the deposited data

Results flagged for a closer look

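Slc25a44, a carrier of branched-chain amino acids, lay on opposite sides of HFD in the treated groups, since every TJ library was below and every GT library above every HFD library. The direct difference between TJ and GT was −0.46 (log2, limma adjusted p = 0.171 over all genes), lower in TJ in 3 of 3 libraries, and it fails the correction. Both groups were compared with the same HFD libraries, and the difference of their effects has no test beyond this one.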

How the results depend on the processing

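Calls depended on the fit. Of 514 alternative fits of 31 log2 fold changes of named members, 385 kept their side of the threshold and direction. Another 84 lost the threshold, 45 gained it and 0 changed sign. These members were picked for a call or for a fold change among the 3 highest or lowest. Several alternatives, such as the filter and the variance trend, also leave the fold change as it is. A sign change was thus unlikely from the start, and its absence does not measure robustness. The family medians did change sign. That of HFD against ND (0.43) fell below 0 in 5 of 19 alternatives, at −0.15 with array weights, −0.14 without ND replicate 1, −0.08 without HFD replicate 1 as well, −0.08 without ND replicate 1 with the block and −0.19 without ND replicate 1 under median-of-ratios scaling. That of TJ against HFD did so in 1 of 16, at −0.06 with the length trend removed, and that of TJ against GT in 7 of 16. Counts of called members are given with the share of all genes called in the same fit. In TJ against HFD the 6 called members (18.5%) became 1 with no filter (1.88%), 12 with quantile normalization (21.0%), 0 with all 12 libraries in 1 fit (0.00781%), where ND replicate 1 enters the spread, and 3 with the replicate block (9.35%). The 4 called in GT against HFD (3.63%) became 0 with no filter (0.0257%), with all 12 libraries (0.00783%) and with the replicate block (0.0392%), 1 with no mean-variance trend (0.525%) and 7 with array weights (11.1%). In HFD against ND the count of 0 (1.77%) became 1 with quantile normalization (1.55%) or no mean-variance trend (1.78%), 2 with the length trend removed (2.77%), 4 with all 12 libraries (7.84%), 8 with array weights (13.1%), and 5 both without ND replicate 1 and HFD replicate 1 (7.43%) and without ND replicate 1 under median-of-ratios scaling (12.5%). In TJ against GT the count of 0 (0.148%) became 2 with array weights (12.4%). Leaving out 1 library gave 0 to 7 members in TJ against HFD (0 to 26.5%), 0 to 7 in HFD against ND (0 to 15.4%), 0 to 7 in GT against HFD (0.0311% to 8.63%) and 0 in TJ against GT (0.0327% to 0.665%). The causes were not tested. In HFD against ND the replicate block gave 0 members and 0 genes in all, and without ND replicate 1 it gave 2 members (3.67%). The numbers did not clearly pair these libraries, since HFD replicate 3 correlated most with ND replicate 2 (0.63). Same-numbered libraries correlated at −0.03, −0.05 and 0.23 in TJ against HFD. The values were 0.20, 0.05 and −0.07 in GT against HFD and 0.37, −0.21 and −0.08 in TJ against GT. Without Slc25a4 and Slc25a5 in the sum, citrate and dicarboxylate carriers took 18.0% in ND, 32.9% in HFD, 33.4% in GT and 24.5% in TJ.

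FPKM do not give the number of fragments behind a value, so the counting error of low values, such as those of Slc25a43, is not known. With 3 libraries per group no exact permutation p can fall below 0.1. Members that overlap another gene on the opposite strand cannot be separated from it without strand.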
